A study of Mus musculus with 9 samples.

Results

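Embryoid bodies made from 2 Hnrnpll knockout stem cell lines and grown for 8 days were compared with undifferentiated wild-type mouse embryonic stem cells. The comparison uses 3 of the 9 libraries of the series: 1 body library from line G6, 1 from line H8 (both Hnrnpll-/-, day 8), and 1 library of wild-type stem cells at day 0. The members were chosen by genotype, tissue and day in the labels, and every gene in the deposited tables was considered. The series as a whole profiled polyA+ RNA of wild-type and knockout cells at days 0, 4 and 8, with 1 wild-type and 2 knockout libraries a day. Stem cells were kept with 15% fetal bovine serum and LIF (leukemia inhibitory factor, a cytokine that holds mouse stem cells in self-renewal), bodies were started in hanging drops, and no feeder layer is mentioned. The question was how far the knockout bodies still resembled undifferentiated wild-type cells, and which differentiation genes they had turned on. Genotype, cell line and day all change at once here and cannot be told apart. The labels do not say whether the lines are single clones, how the allele was made, or whether the libraries came from separate cultures, so the p-values measure only the spread between these libraries.

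When LIF is withdrawn and stem cells aggregate, the network around Pou5f1, Sox2 and Nanog is normally shut down. Cells pass through a formative state marked by Fgf5 and Otx2, then a primitive-streak-like state marked by T and Mixl1, and then give rise to endoderm, blood, vessels, heart muscle and other derivatives. Cells at the surface of a body often form extraembryonic endoderm, the tissue of the yolk sac, which secretes Ttr, Afp and apolipoproteins. The Hnrnpll product is a heterogeneous nuclear ribonucleoprotein that controls alternative splicing in lymphocytes and plasma cells.

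Total counts in named genes were 113023429 for wild-type stem cells, 154612747 for G6 bodies and 184890212 for H8 bodies, and between 16150 and 16499 genes reached 1 TPM (a level scaled for gene length and library size) in each of the 3. Low counts fell on multiples of 4 more often than the 1 in 4 that even spacing gives (30.6% to 43.5% over the 9 libraries), so single low counts may stand for fewer reads. Hnrnpll itself was not absent from the libraries labelled knockout. It was at 77.1 TPM in wild-type stem cells and at 56.5 (G6) and 43.5 (H8) TPM in knockout bodies, with a log2 difference of -0.63 ± 0.46 (SE) and an adjusted p of 0.562 in edgeR. Both body libraries were below the stem cells, but a gene-level value cannot tell reads of the altered part from the rest, so this level does not check the label. Its closest paralog Hnrnpl was at 389 TPM in stem cells and at 357 and 316 TPM in bodies. The labelled tissues fit their defining markers only in part. Wild-type stem cells had high Pou5f1, Sox2, Nanog, Zfp42 and Esrrb, but the bodies had these markers too, and of the heart and blood markers Nkx2-5 reached only 0.27 and 0.53 TPM in them and Hbb-bh1 was listed at 0 in G6.

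By whole-transcriptome rank order, the knockout bodies were nearer to wild-type stem cells than to wild-type bodies of the same age. Across 19812 genes with at least 1 TPM somewhere in the series, the Spearman correlation of log2(TPM + 1) with wild-type stem cells was 0.949 for G6 and 0.946 for H8. It was 0.894 and 0.915 with wild-type day 8 bodies, and 0.935 and 0.938 with wild-type day 4 bodies. On that scale the share of genes at least 2-fold apart was 9.14% (G6) and 10.7% (H8) against wild-type stem cells, and 22.6% and 20.3% against wild-type day 8 bodies. With 0.1 in place of 1 added to TPM, which gives low genes more weight, the shares were 19% and 21.4% against stem cells and 33.7% and 31.5% against wild-type bodies. Both lines were also nearer to wild-type stem cells than to their own day 0 cells. Correlations with the day 0 library of the same line were 0.923 (G6) and 0.919 (H8). Those day 0 libraries had the fewest counts of the series, 54202944 (G6) and 61611725 (H8). They also had the largest shares of low counts on multiples of 4 (43.5% and 42.6%). The part of these differences in the correlations was not tested. The nearest libraries were the other knockout bodies: the 2 body libraries correlated at 0.980 with each other and at 0.957 to 0.970 with the knockout day 4 bodies. These are descriptions of single libraries, and genes are not independent replicates. With genes restricted to those at 10 TPM in at least 1 library, the correlation with wild-type stem cells was 0.929 and 0.920, and that with wild-type day 8 bodies was 0.818 and 0.846.

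Gene by gene, 41 of 24794 genes tested differed between knockout bodies and wild-type stem cells at an adjusted p under 0.05 (edgeR quasi-likelihood test). Of these, 4 were higher (0.0161% of genes tested) and 37 lower (0.149%) in the bodies, and in all 41 both lines lay on the same side of the stem cell library. At an unadjusted p under 0.05, 1932 genes were higher (7.79%) and 1608 lower (6.49%). DESeq2 called 682 higher (2.75%) and 636 lower (2.57%), and limma-voom 21 (0.0847%) and 179 (0.722%). The main counts rest on the spread between the 2 knockout lines over all 3 days, because the stem cell group holds 1 library. Without one of the day 4 knockout libraries, edgeR called 0 genes (with G6 left out, 1366 higher and 1217 lower at an unadjusted p under 0.05; with H8 left out, 1371 and 1226). Without one of the day 8 knockout libraries, 1 gene was called (Eif2s3y, lower, in either case). Without the day 0 library of G6, 1 gene was higher and 17 lower, and without that of H8, 2 and 21. Without the wild-type day 8 library, 11 were higher and 65 lower.

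**Figure D1:**
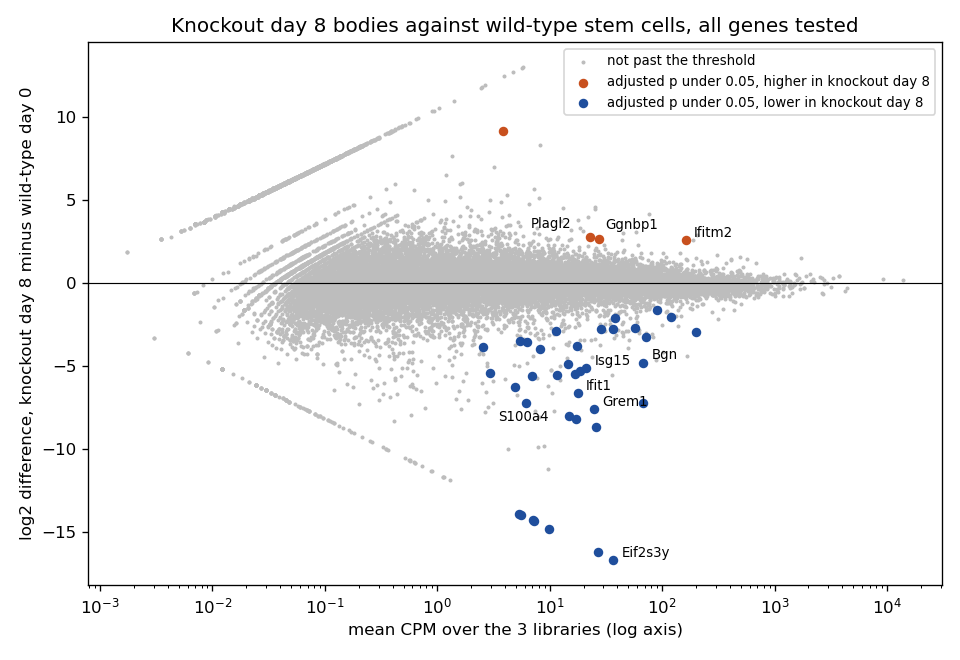
Each point is 1 of the 24794 genes tested, with mean CPM (counts scaled by library size) over the 3 libraries on a log x axis and the fitted log2 difference, knockout day 8 minus wild-type day 0, on the y axis. Orange points are the 4 genes called higher and blue points the 37 called lower; the slanted lines of points at the edges are genes with 0 counts in 1 of the groups, whose fitted values are no measure of fold.

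A call missed is not likeness, so closeness was counted by the 95% interval of each log2 difference. For 6159 genes (24.8% of those tested) the interval lay within -1 to 1, that is, within 2-fold either way. Among the 4584 genes with a mean of at least 50 CPM the share was 70.0%. The median log2 difference over all genes tested was 0.06, a value that the scaling itself holds near 0 and that the list medians are set beside.

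No pluripotency gene passed the test in edgeR. Wild-type day 8 bodies exceeded both knockout libraries in 0 of 16 naive and 3 of 15 general pluripotency genes. The share of all genes for which this held was not counted, so such counts, here and for the lists below, have no background beside them. Pou5f1, the central POU factor of pluripotency, was at 1372 TPM in wild-type stem cells and at 1088 and 1013 TPM in G6 and H8 bodies, against 178 TPM in wild-type day 8 bodies. Sox2, its partner, was at 339 TPM in stem cells and at 415 and 350 TPM in knockout bodies, against 75.7 TPM in wild-type bodies. For both genes the 2 knockout libraries were near the stem cells and far above the wild-type bodies. Intervals put both genes within 2-fold of stem cells (Pou5f1 -0.77 to 0.02; Sox2 -0.25 to 0.62).

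Nanog, a homeobox factor of the same network, was at 272 TPM in stem cells and at 398 and 496 TPM in knockout bodies, with a log2 difference of 0.73 ± 0.30 (SE) and an adjusted p of 0.350. Zfp42 (Rex1), a naive-state marker, was at 366 TPM in stem cells and at 484 and 511 TPM in bodies. Esrrb, a nuclear receptor of the naive state, was at 143 TPM in stem cells and at 229 and 219 TPM in bodies. In these 3 genes both knockout libraries lay above the stem cell library, but no gene of the 3 passed the test. Klf4, a naive-state factor sensitive to LIF, was on the other side, at 150.3 TPM in stem cells and at 68.0 and 107.5 TPM in bodies. Fgf4, the growth factor that primes stem cells for exit, was at 46.7 TPM in stem cells and at 130.9 and 124.5 TPM in bodies, with a log2 difference of 1.47 ± 0.27 (SE) and an adjusted p of 0.130 in edgeR.

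Over the pluripotency lists, edgeR called 0 of the 16 naive and 0 of the 15 general genes. At an unadjusted p under 0.05, 3 naive genes were higher and 2 lower, and 1 general gene was higher and 4 lower. DESeq2 called 1 naive gene higher (Fgf4) and 1 lower (Fbxo15, an early Oct4 target), and 2 general genes lower (Lin28a, an inhibitor of let-7 processing, and Dppa2, a chromatin factor), while limma-voom called 0. The medians of log2 difference were 0.37 (naive) and -0.38 (general). Only 8 of the 31 had an interval within 2-fold, close to the 24.8% over all genes. Among the 25 with a mean of at least 50 CPM, 8 (32.0%) did, below the 70.0% of all genes at that level. Summed over the naive list, the level was 2625 TPM in stem cells, 2319 and 2386 TPM in knockout bodies, and 413 TPM in wild-type day 8 bodies, while the lines' own day 0 cells held 4280 (G6) and 4677 (H8) TPM and their day 4 bodies 1773 and 1443 TPM. The day 8 level of this list was thus higher than the day 4 level in both lines; Zfp42, for one, was at 126 and 123 TPM in the day 4 bodies and Esrrb at 71.0 and 71.2 TPM. Because a body is a mixture, fewer cells of a type and less RNA per cell cannot be told apart in these values.

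**Figure D2:**
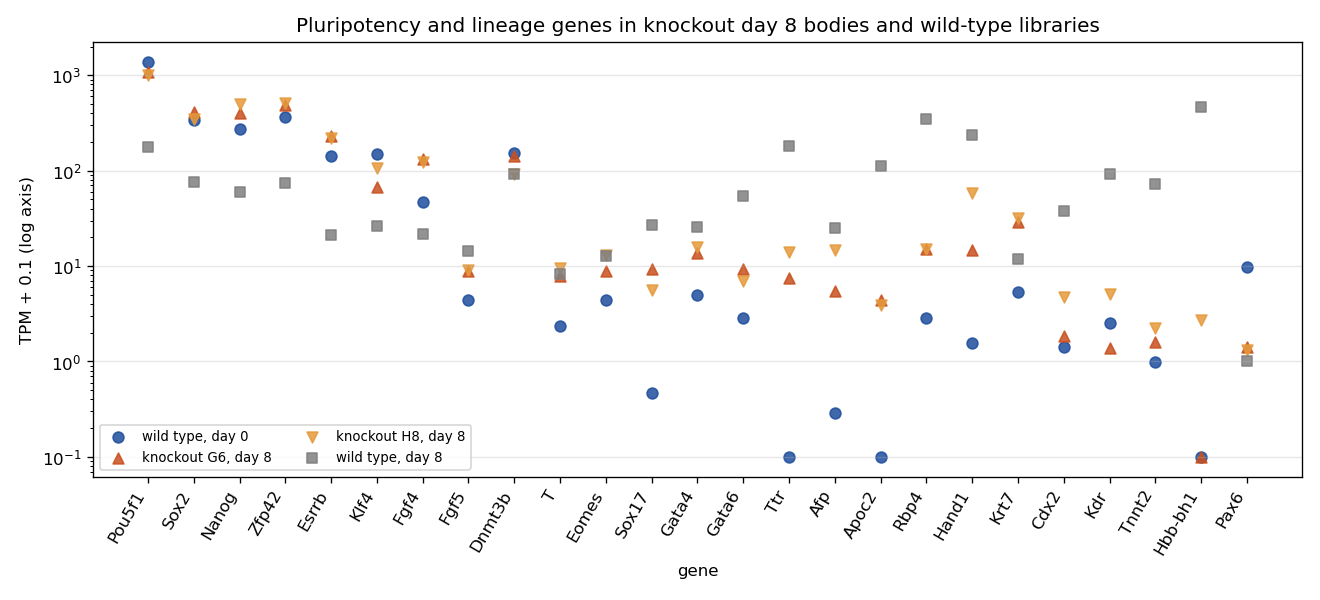
TPM plus 0.1 on a log axis for 25 pluripotency and lineage genes, with 1 point per library: wild-type stem cells (circles), knockout bodies G6 and H8 (triangles) and wild-type day 8 bodies (squares). From Pou5f1 to Fgf4 both knockout bodies lie above wild-type day 8 bodies, with Klf4 below and Fgf4 above its stem cell level. Knockout values of Ttr, Apoc2, Rbp4 and Hand1 lie between stem cells and wild-type bodies.

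Formative and streak genes did not pass the test in the knockout bodies, and several lay above stem cells. Fgf5 was at 4.30 TPM in stem cells and at 8.76 and 8.94 TPM in bodies, against 14.2 TPM in wild-type day 8 bodies. Dnmt3b, the de novo methyltransferase of the primed state, was at 152 TPM in stem cells and at 142 and 92.5 TPM in bodies. Its level in wild-type day 8 bodies was 92.2 TPM. T (brachyury), the founding streak factor, was at 2.23 TPM in stem cells and at 7.85 and 9.34 TPM in bodies. Wild-type day 8 bodies held T at a like level, 8.08 TPM. At day 4, T was at 853 TPM in wild-type bodies and at 30.7 (G6) and 78.5 (H8) TPM in knockout bodies. None of the 3 differences from stem cells passed the test (adjusted p 0.536 for Fgf5, 0.522 for Dnmt3b and 0.451 for T, edgeR).

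Eomes, a T-box factor of mesendoderm, was at 4.26 TPM in stem cells and at 8.74 and 12.9 TPM in bodies, and Mixl1 was at 0.50 TPM against 0.93 and 1.92 TPM. In wild-type day 8 bodies Eomes was at 12.6 TPM and Mixl1 at 1.60 TPM. In the streak list edgeR called 0 of 18 genes (2 higher and 2 lower at an unadjusted p under 0.05), DESeq2 called Lhx1 higher and Lefty1 lower, and limma-voom called Lefty1 lower alone. Lefty1, a secreted Nodal inhibitor that stem cells make, was at 359 TPM in stem cells and at 75.2 and 48.5 TPM in bodies, with a log2 difference of -2.59 ± 0.31 (SE) and an adjusted p of 0.0558 in edgeR. Lhx1, a factor of anterior mesendoderm, had 0 counts in stem cells and 62 and 1356 counts in bodies, so the pooled bodies were at least 149.6-fold higher against a floor of 3 counts, with nearly all of it from H8. In the formative list 0 of 14 genes were called by edgeR, DESeq2 or limma-voom, and none had an unadjusted p under 0.05.

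Many extraembryonic endoderm genes lay above stem cell levels, though none passed the test in edgeR. Ttr, the thyroxine carrier secreted by visceral endoderm, had 0 counts in stem cells and reached 7.39 and 13.8 TPM in G6 and H8 bodies, against 179.5 TPM in wild-type day 8 bodies. Afp, the fetal albumin-like protein of the yolk sac, was at 0.19 TPM in stem cells, at 5.41 and 14.5 TPM in knockout bodies and at 24.8 TPM in wild-type bodies. Apoc2, an apolipoprotein that activates lipoprotein lipase, had 0 counts in stem cells and was at 4.36 and 3.76 TPM in knockout bodies, against 112 TPM in wild-type bodies. For all 3 genes both knockout libraries were above the stem cells and below the wild-type bodies.

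Against a floor of 3 counts, Ttr was at least 266-fold and Apoc2 at least 51.0-fold higher in the pooled knockout bodies than in stem cells, bounds that would be up to 4 times lower where counts come in steps of 4. Their adjusted p values in edgeR were 0.0558 (Ttr) and 0.0786 (Apoc2). Afp had a log2 difference of 5.68 ± 1.08 (SE) and an adjusted p of 0.145. Rbp4, the retinol carrier, was at 2.76 TPM in stem cells and at 15.1 and 15.2 TPM in bodies, 4.37% of the wild-type day 8 level on average. The bodies' mean Ttr level was 5.91% and their mean Afp level 40.1% of wild-type day 8 bodies. Of the 30 genes of this list, edgeR called 0, with 10 higher and 1 lower at an unadjusted p under 0.05. DESeq2 called 9 higher (Afp, Amn, Apoa1, Apoa4, Apob, Apoc2, Ihh, Rbp4 and Ttr) and 1 lower (Thbd), and limma-voom called Thbd lower. The median log2 difference was 1.39, against 0.06 over all genes, and 22 of 30 genes were above the stem cell TPM in both lines, against 41.2% of all genes tested. The summed level of the list was 1382 TPM in stem cells and 2387 and 1927 TPM in knockout bodies, but the day 0 cells of H8 also held 2546 TPM, without Ttr or Apoc2 counts in the table.

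Transcription factors of endoderm, whether embryonic or extraembryonic, also lay above stem cell levels without passing the test. Sox17 was at 0.37 TPM in stem cells and at 9.32 and 5.47 TPM in bodies, Gata4 at 4.90 TPM against 13.5 and 15.7 TPM, and Gata6 at 2.74 TPM against 9.19 and 6.79 TPM. Foxa2, a pioneer factor of definitive endoderm, was at 1.27 TPM against 5.15 and 1.38 TPM. Both lines were above the stem cells in each, with Foxa2 in H8 nearest to the stem cell level (adjusted p from 0.362 to 0.567, edgeR). In the definitive endoderm list edgeR and limma-voom called 0 of 16 genes, 5 were higher at an unadjusted p under 0.05, and DESeq2 called Cpm, Cxcr4, Hnf4a and Prox1 higher. The median of that list was 2.0, and wild-type day 8 bodies exceeded both knockout libraries in 14 of the 16.

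Trophoblast-associated genes also lay mostly above stem cells, with 13 of the 18 genes listed above the stem cell TPM in both lines and 2 below, against 41.2% and 37.3% of all genes tested. Krt7, a keratin of simple epithelia and trophoblast, was at 5.22 TPM in stem cells, at 28.6 and 31.8 TPM in knockout bodies, and at 11.7 TPM in wild-type day 8 bodies, so it was above both wild-type libraries. Hand1, a factor of trophoblast giant cells and of extraembryonic and cardiac mesoderm, was at 1.47 TPM in stem cells and at 14.7 and 57.8 TPM in bodies, against 239 TPM in wild-type bodies. Rhox6, an X-linked homeobox gene of placenta and germ cells, was at 7.86 TPM in stem cells and at 24.99 and 24.79 TPM in bodies.

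The 2 lines were alike for Krt7 and Rhox6 and apart for Hand1. edgeR called 0 of the 16 trophoblast genes tested, while 8 were higher and 1 lower at an unadjusted p under 0.05. DESeq2 called 6 higher (Hand1, Krt7, Plac1, Rhox6, Rhox9 and Tead4) and 1 lower (Prl2c2), limma-voom called Prl2c2 lower, and the median was 1.36. Cdx2, the trophectoderm and posterior factor, was at 1.31 TPM in stem cells and at 1.77 and 4.69 TPM in bodies, and Elf5, a trophoblast stem cell factor, was below 0.50 TPM throughout the 3 libraries.

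Heart, blood and vessel genes were mostly below their level in wild-type bodies of the same age. Wild-type day 8 bodies exceeded both knockout libraries in 23 of 24 cardiac and 22 of 24 blood and vessel genes. The share of all genes was not counted. Members differed from stem cells in both directions. Tnnt2, cardiac troponin T, was at 0.88 TPM in stem cells and at 1.51 and 2.14 TPM in knockout bodies, against 72.5 TPM in wild-type bodies. Kdr, the VEGF receptor of early vessels and blood, was at 2.46 TPM in stem cells and at 1.29 and 4.96 TPM in knockout bodies, against 93.0 TPM in wild-type bodies. Hbb-bh1, the embryonic globin, was listed at 0 in stem cells and in G6 bodies and at 2.61 TPM in H8 bodies, against 461.7 TPM in wild-type bodies. The stem cell value lay between the lines for Kdr and just below both for Tnnt2.

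Of 24 cardiac genes, edgeR called 1, Ttn, the giant sarcomere protein, which fell from 1.14 TPM to 0.17 TPM in each line (log2 difference -2.77 ± 0.28 SE, adjusted p 0.0372, but 0.0525 with the line as a replicate block). Ttn is read here at very low levels per length and overlaps another annotated gene. DESeq2 called 5 cardiac genes higher (Hand1, Isl1, Myl4, Ryr2 and Tnni1) and 2 lower (Actc1 and Ttn), and the list median was 1.05. Of 22 blood and vessel genes tested, edgeR, DESeq2 and limma-voom called 0, and none had an unadjusted p under 0.05. Pax6, a neural and eye factor, was at 9.57 TPM in stem cells and at 1.33 and 1.22 TPM in bodies, with a log2 difference of -2.77 ± 0.41 (SE) and an adjusted p of 0.0885 in edgeR. Sox1, the first neural marker, was at 0.79 TPM against 0.47 and 1.06 TPM. In the neural list edgeR called 0 of 21 genes tested (1 higher and 5 lower at an unadjusted p under 0.05). DESeq2 called 1 higher and 5 lower, limma-voom called Pax6 lower, and the median was -0.80. Of the 24 genes listed, 16 were below the stem cell TPM in both lines, against 37.3% of all genes tested.

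**Figure D3:**
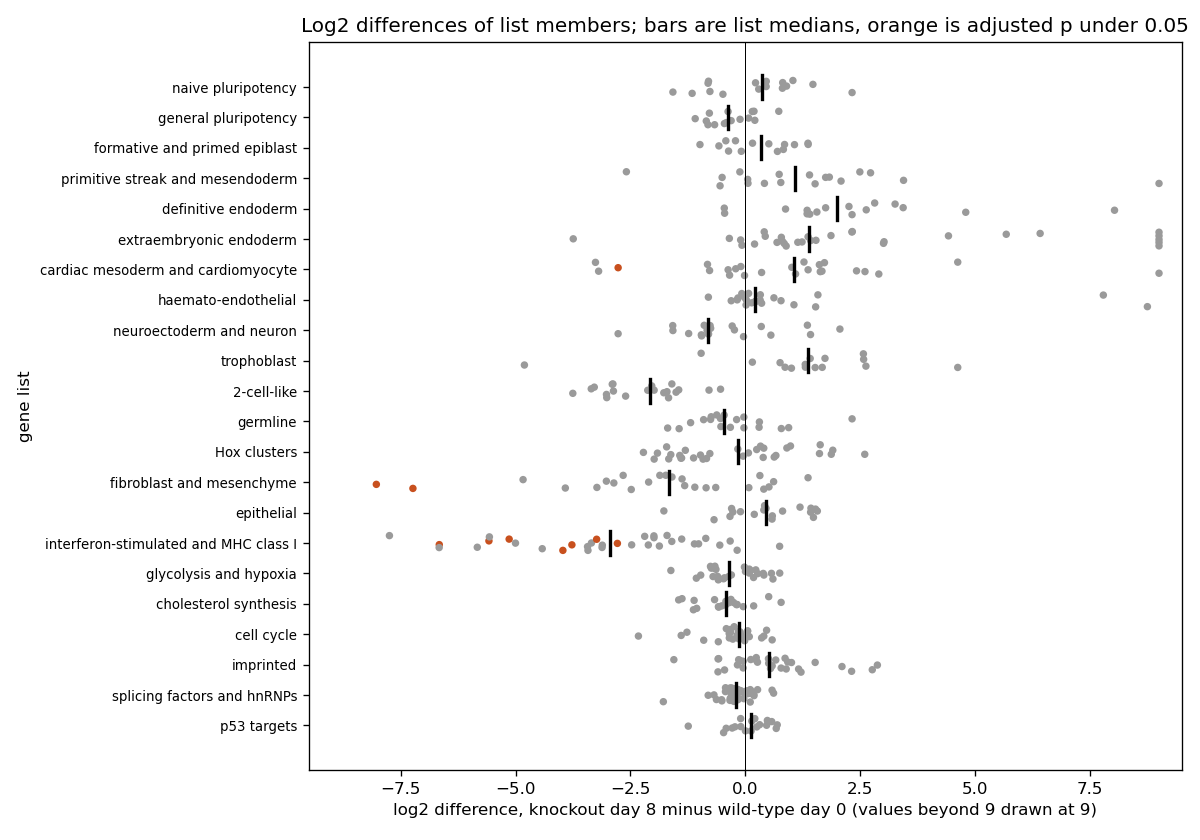
Each point is a gene of 1 list, placed by its fitted log2 difference on the x axis (knockout day 8 minus wild-type day 0; values beyond 9 are drawn at 9). Black bars are list medians, highest for definitive endoderm (2.0) and lowest for interferon-stimulated genes (-2.95), and orange points passed the test.

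Over all genes, 712 were under 1 TPM in wild-type stem cells and at 1 TPM or more in both knockout body libraries (2.87% of genes tested), and equally many, 712, went the other way. Of the 712 that appeared, 418 were also at 1 TPM or more in wild-type day 8 bodies, and 242 (34.0%) were higher there than in both knockout libraries. By list, 7 of them were extraembryonic endoderm genes, 4 definitive endoderm, 4 cardiac, 2 trophoblast, 1 streak and 1 Hox, and 0 were blood and vessel or neural genes.

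Many imprinted genes govern growth of the embryo. Of 31 listed, 16 lay above the stem cell TPM in both lines and 4 below. The shares of all genes tested were 41.2% above and 37.3% below. The lines were far apart for Igf2, a difference that was not tested. Igf2, the fetal growth factor, was at 16.4 TPM in stem cells and at 33.5 TPM in G6 and 347 TPM in H8 bodies, against 905 TPM in wild-type bodies. H19, the noncoding RNA that shares its control region, was at 14.9 TPM in stem cells and at 14.9 and 4.26 TPM in knockout bodies, against 986 TPM in wild-type bodies. Both values of Igf2 lay above the stem cells, whereas H19 was level with the stem cells in G6 and below them in H8. edgeR and limma-voom called 0 of 31 imprinted genes, 7 were higher and 0 lower at an unadjusted p under 0.05, and DESeq2 called Airn, Dio3, Mkrn3 and Zim1 higher.

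Interferon-stimulated genes made up the largest group of calls: 7 of 34 were lower and 0 higher (edgeR), against 0.149% of all genes called lower. At an unadjusted p under 0.05, 28 were lower and 1 higher (Irf1), and 32 of 34 were below the stem cell TPM in both lines, against 37.3% of all genes tested. Ifit1, an antiviral protein that binds foreign RNA caps, was at 36.3 TPM in stem cells and at 0.42 and 0.29 TPM in G6 and H8 bodies (log2 difference -6.66 ± 0.50 SE, adjusted p 0.0214). Isg15, the ubiquitin-like interferon product, was at 147 TPM in stem cells and at 4.11 and 4.15 TPM in bodies (-5.14 ± 0.52 SE, adjusted p 0.0396).

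Mx2, of the antiviral dynamin-like GTPase family but annotated as a polymorphic pseudogene, fell from 31.8 TPM to 0.53 and 1.18 TPM. Ifih1, the cytosolic RNA sensor MDA5, fell from 9.35 TPM to 0.43 and 0.54 TPM. Oas2, a sensor of double-stranded RNA that makes oligoadenylates, fell from 26.8 TPM to 2.35 and 2.56 TPM, and Parp14, an interferon-induced ADP-ribosyltransferase, from 22.3 TPM to 2.85 and 3.42 TPM. B2m, the invariant subunit of MHC class I molecules, was at 253 TPM in stem cells and at 94.8 and 97.5 TPM in bodies (-1.38 ± 0.18 SE, adjusted p 0.0654). In each of these genes apart from Irf1 (26.4 TPM in stem cells, 35.4 and 34.1 TPM in bodies) the bodies lay below the stem cells without overlap. The list median was -2.95, DESeq2 called 25 lower and 1 higher, limma-voom 22 lower, and edgeR with the line as a replicate block 10 lower.

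The stem cell library stood apart from the other libraries for these genes. Summed over the list, it held 2294 TPM, against 531 and 590 TPM in knockout bodies, 389 TPM in wild-type day 8 bodies, 1096 TPM in wild-type day 4 bodies, and 334 and 342 TPM in knockout stem cells. The wild-type library of day 0 was thus the highest of the 9, and its part in the result was not tested, since it is the only library of its group.

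The promoters of the called interferon genes were searched for the core of the interferon-stimulated response element, which is GAAA, any 2 bases and GAAA again, on either strand (read as TTTC blocks where it lies on the other strand), in the 250 bases before the start site (RefSeq, GRCm38.p6). Of the 7 genes called lower, 3 have an entry in the promoter table (Ifih1, Ifit1 and Isg15), and 2 of these hold a match. Of all 34 list genes, 27 have an entry and 12 (44.4%) hold a match, against 936 of 27025 genes (3.46%) in the table. The promoters of Ifit1 (chr19:34640639-34640888, plus strand), Isg15 (chr4:156200819-156201068, minus strand) and Ifih1 (chr2:62646256-62646505, minus strand) are shown because these are the called genes with an entry. Capitals mark matches, which overlap one another in Isg15 and are absent from the window of Ifih1. A match is a description of these letters and no evidence of binding.
Ifit1: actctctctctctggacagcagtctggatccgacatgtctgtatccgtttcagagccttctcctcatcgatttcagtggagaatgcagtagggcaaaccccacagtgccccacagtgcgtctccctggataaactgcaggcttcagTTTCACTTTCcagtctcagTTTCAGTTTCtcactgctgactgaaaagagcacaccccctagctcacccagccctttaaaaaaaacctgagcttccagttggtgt
Isg15: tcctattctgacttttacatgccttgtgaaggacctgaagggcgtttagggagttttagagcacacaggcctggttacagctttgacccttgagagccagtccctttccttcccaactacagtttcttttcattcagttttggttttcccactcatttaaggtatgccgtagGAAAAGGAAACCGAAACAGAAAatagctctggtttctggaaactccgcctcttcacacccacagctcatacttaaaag
Ifih1: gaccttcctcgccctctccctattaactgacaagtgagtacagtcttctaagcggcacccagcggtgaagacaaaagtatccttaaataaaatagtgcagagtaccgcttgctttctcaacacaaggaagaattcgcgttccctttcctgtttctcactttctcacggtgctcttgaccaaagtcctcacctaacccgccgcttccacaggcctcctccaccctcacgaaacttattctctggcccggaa

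Genes of the 2-cell-like state, a rare and transient condition of cultured stem cells, also lay below stem cell levels in the bodies. Zscan4c, a telomere-associated zinc finger gene that defines the state, was at 95.7 TPM in stem cells and at 8.89 and 16.6 TPM in bodies, against 5.13 TPM in wild-type day 8 bodies. All 20 genes of the list were below the stem cell TPM in both lines, against 37.3% of all genes tested. edgeR called 0 of the 20, with 0 higher and 15 lower at an unadjusted p under 0.05; with the line as a replicate block it called 5 lower (Zscan4a, Zscan4b, Zscan4d, Zscan4e and Zscan4f). DESeq2 called 11 lower and limma-voom 5, and the median was -2.08. These genes are near-identical copies whose reads may be split between them. Stem cells held 1045 TPM over the list, and the other 8 libraries between 187 and 310 TPM.

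Genes of fibroblasts and mesenchyme were also among the calls. S100a4, a calcium-binding protein of fibroblasts, fell from 163 TPM to 0.49 and 0.82 TPM (log2 difference -8.03 ± 0.57 SE, adjusted p 0.0214). Lox, the enzyme that crosslinks collagen, fell from 97.8 TPM to 0.26 and 0.98 TPM (-7.23 ± 0.70 SE, adjusted p 0.0356). Both body libraries held next to none of either transcript. Wild-type day 8 bodies were also far below the stem cells, at 2.60 TPM for S100a4 and 1.19 TPM for Lox. In the list of 24 edgeR called these 2 lower and 0 higher, with 9 lower at an unadjusted p under 0.05 and a median of -1.66. DESeq2 called 7 lower and limma-voom 3.

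Outside that list, Grem1, a secreted BMP inhibitor, fell as well. Grem1 (chr2:113746164-113758646, mm10) was at 32.7 TPM in stem cells and at 0.13 and 0.20 TPM in bodies. Inhba, the activin A subunit, fell from 60.9 TPM to 0.07 and 0.31 TPM, and the matrix proteoglycan gene Bgn, chosen after its values were seen, from 154.6 TPM to 4.70 and 6.69 TPM. Il1rl1, the interleukin-33 receptor, and Serpinb2, a plasminogen activator inhibitor, had 0 counts in both body libraries and were at 12.7 and 19.9 TPM in stem cells, at least 2529-fold and 2457-fold lower in the bodies against a floor of 3 counts. Wild-type day 8 bodies were low for these genes as well. They held Grem1 at 0.18, Inhba at 2.14 and Bgn at 9.14 TPM, and had 0 counts of Il1rl1 and Serpinb2.

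Stromal markers were present in the stem cell library itself. Col1a1, Col1a2, Col3a1 and Thy1 were at 54.5, 72.4, 11.6 and 16.3 TPM there, while Lum was at 0.10 TPM; in G6 bodies they were at 1.74, 4.13, 0.33 and 6.43 TPM with Lum at 0, and in H8 bodies at 12.2, 12.8, 3.66 and 6.64 TPM with Lum at 0.49. Over the list of 24, stem cells held 1917 TPM, knockout bodies 682 (G6) and 1302 (H8) TPM, and wild-type day 8 bodies 4616 TPM. The knockout stem cells of day 0 also held S100a4 (52.7 and 42.6 TPM), while both day 4 knockout libraries had 1.01 TPM or less. The part of these cells or genes in the calls was not tested.

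**Figure D4:**
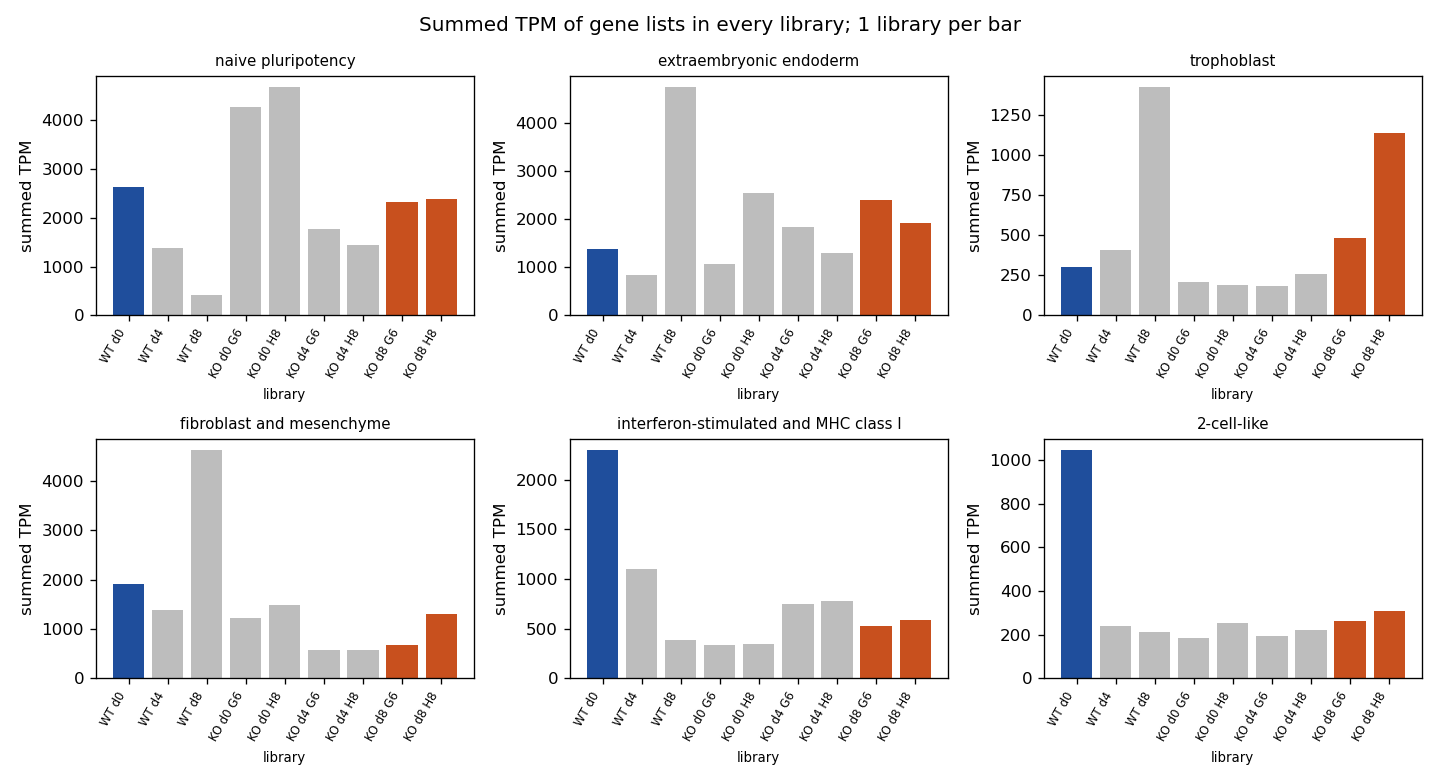
Summed TPM (y axis, from 0) of 6 gene lists in each of the 9 libraries, 1 bar per library, with wild-type stem cells in blue and knockout day 8 bodies in orange. Naive pluripotency stands near the stem cell level in both knockout bodies, extraembryonic endoderm and trophoblast stand above it, and the interferon and 2-cell-like lists are highest in wild-type stem cells.

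Y-linked genes separated the lines. Eif2s3y, a translation factor gene on the Y chromosome, was at 128.9 TPM in wild-type stem cells and had 0 counts in both knockout bodies, at least 12774-fold lower against a floor of 3 counts; Ddx3y and Uty, at 48.5 and 15.6 TPM in stem cells, also had 0 counts in both. The 3 were called lower by edgeR, and were also at 29.5 TPM or more in wild-type day 8 bodies. Knockout day 0 cells were not free of such counts. They held 55 (G6) and 51 (H8) for Eif2s3y, 59 and 130 for Ddx3y, and 28 and 40 for Uty. Xist, the X-linked RNA of X inactivation and a member of the same list of 5, was at 8.42 TPM in stem cells and below 2 TPM in both bodies and did not pass in edgeR (adjusted p 0.126), whereas DESeq2 and limma-voom called it lower. Genotype and line cannot be told apart here. Gvin1, an interferon-inducible GTPase gene, also went from 3.36 TPM to 0 counts in both lines (edgeR adjusted p 0.0349, but 0.0653 with the line as a replicate block). It differed from the Y-linked genes in later wild-type bodies, with 0 counts at day 4 and 68 at day 8. Knockout day 0 cells held 22 (G6) and 27 (H8) counts of Gvin1.

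The 4 genes that edgeR called higher were Plagl2, Ifitm2, Ggnbp1 and Gm47308. Plagl2 (chr2:153227759-153241426, mm10), a zinc finger factor related to the imprinted Plagl1, went from 1.55 TPM in stem cells to 10.5 and 10.9 TPM in bodies (log2 difference 2.79 ± 0.24 SE, adjusted p 0.0289). It was at 3.41 TPM in wild-type day 8 bodies and at 13.5 TPM in wild-type day 4 bodies. Both knockout body libraries were close together and above the wild-type stem cells, as was every other library of the series. Knockout day 0 cells already held Plagl2 at 7.14 (G6) and 6.08 (H8) TPM.

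Ifitm2 (chr7:140954837-140955987, mm10), a membrane protein that restricts virus entry, went from 104 TPM to 560 and 692 TPM (2.60 ± 0.22 SE, adjusted p 0.0289). The same reads may be shared with the overlapping gene model Gm45717, which was called lower. Gm45717 had 8523 counts in stem cells and 15 and 51 in bodies, while Ifitm2 had 4052 in stem cells and 31634 and 46972 in bodies. Their sum was 114 CPM in stem cells and 201 and 246 CPM in bodies, so the combined locus differed by less than Ifitm2 alone. Knockout day 0 cells already held Ifitm2 at 869 (G6) and 803 (H8) TPM, with 11 and 4 counts of Gm45717. In knockout day 4 bodies Ifitm2 was at 123 and 131 TPM, with 10513 and 13432 counts of Gm45717.

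Ggnbp1, a testis-expressed gene that overlaps Bak1, went from 8.23 TPM to 25.2 and 23.5 TPM (log2 difference 2.69 ± 0.25 SE from counts, adjusted p 0.0349). Its counts were 655 in stem cells and 6480 and 6734 in bodies, so the counts moved further apart than the TPM, and on log2(TPM + 1) the difference was 1.46 with an adjusted p of 0.0541 in limma. Knockout day 0 cells already held Ggnbp1 at 24.2 (G6) and 26.7 (H8) TPM, and wild-type day 8 bodies held it at 5.25 TPM. Gm47308, a microRNA gene model inside Rab11a and chosen after its values were seen, had 1 count in stem cells against 910 and 1094 in bodies, a ratio of 634 (95% counting interval 114 to 25070). Every other library held at least 205 counts of it, so the stem cell library was the one that stood apart. The 3 genes that overlap another gene are uncertain, because the use of strand in counting is not given. Of all 41 called genes, 26 overlap another annotated gene on either strand. S100a4, Lox and Inhba are among these and share the limit.

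Beside wild-type day 8 bodies, 3 of the 4 genes called higher were lower there than in both knockout libraries, and 1 was higher. Of the 37 called lower, 20 were higher in wild-type day 8 bodies than in both knockout libraries, 10 were lower and 7 lay between. In 33 of the 37, the wild-type day 8 bodies were themselves below the wild-type stem cells. The 37 were chosen by a high value in that same stem cell library, so this count is no separate support. The share of all genes in these positions was not counted.

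Among the 23 lists, those of core machinery were most often within 2-fold of stem cells. Of 40 splicing factors and hnRNPs, 26 had an interval within -1 to 1, of 28 cell cycle genes 17, and of 18 p53 targets 10, against 24.8% of all genes and the 70.0% of genes at 50 CPM. Pcna, the replication clamp, was at 453 TPM in stem cells and at 345 and 347 TPM in bodies, and Mki67, the proliferation marker, at 76.1 TPM against 75.4 and 66.6 TPM. edgeR called 0 of these 86 genes. At an unadjusted p under 0.05 the splicing list had 3 lower, the cell cycle list 1 higher and 5 lower, and the p53 list 2 higher. DESeq2 called Mbnl1 and Khdrbs1 lower among splicing factors and Ccnd2, Ccne1 and Ccne2, cyclins of G1 and S phase, lower in the cell cycle list; limma-voom called Mbnl1 lower.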

How the data were processed

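PolyA+ RNA-seq of mouse stem cells and embryoid bodies was used. The deposited values are unscaled integer counts and TPM for each gene, made by the authors; HISAT2 2.0.5, StringTie 1.3.3b and mm10 are named per the submitters' processing notes, while options, annotation and strand use are not given in the sources used here. Coordinates came from GENCODE M21. The 259 entries with no gene name (under 0.04% of counts) were left out.

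Genes were kept where at least 2 libraries reached 0.0791 CPM, which is 10 counts at median depth. TMM-scaled counts went into edgeR 4.0.16 (two-sided quasi-likelihood test, means for 6 groups over all 9 libraries, R 4.3.3, Benjamini-Hochberg, 0.05), leaving 3 residual degrees of freedom; the lone wild-type library is assumed to vary like the knockout pairs. Alternatives included DESeq2 1.42.0 (no adjusted p for 3846 genes), limma 3.58.1 and a replicate block. The block pairs libraries because same-numbered libraries come from the same line, and differences between lines correlated across days (r = 0.14 to 0.37, 15732 genes). Total counts per library ran from 54202944 to 184890212. Floors of 3 counts and intervals cover counting error only.

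Named genes were 27 fixed names, the 12 largest rises and falls among called genes with at least 5 CPM, and up to 4 called members per list; any other gene named was chosen after its values were seen. The members and lists were chosen with earlier results of these data known. Some genes that passed are not reported here. The script was tested on simulated data.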

Additional observations from a re-analysis of the deposited data

How the results depend on the processing

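The number of genes higher in knockout bodies (4) became 9 with no filter, 682 with DESeq2, 21 with limma-voom, 31 with log2(TPM + 1) and 14 with log2(TPM + 0.1) in limma, 2 without both day 0 knockout libraries, and 9 with protein-coding genes alone, a setting chosen after seeing the data. The number lower (37) became 636, 179, 198, 59, 19 and 58 in the settings from DESeq2 on. With only the 3 libraries compared, edgeR called 0 either way (2307 higher and 1813 lower at an unadjusted p under 0.05), with 1 residual degree of freedom. Leaving out 1 library at a time gave 0 to 11 higher, 0 to 65 lower and 3848 to 7499 genes within 2-fold (6159 in all libraries); log2(TPM + 1), which draws low genes together, gave 14120. The replicate block gave 4 higher, 51 lower and 6758 within 2-fold, and among the 46 genes chosen by the naming rule it changed no call other than those of Ttn and Gvin1; beyond them it added calls such as the 5 Zscan4 genes. All 41 called genes kept their direction in each setting that gave them a value. DESeq2 kept 41 calls, limma-voom 40 and the block 34, while leaving out a day 4 knockout library kept 0. Other normalizations changed no call of a named gene. The single stem cell library limits every value.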

Other observations

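Metabolic genes lay more often below stem cells than above: 16 of 29 glycolysis and hypoxia genes and 16 of 20 cholesterol synthesis genes were below the stem cell TPM in both lines, against 37.3% of all genes tested. edgeR called 0 of 29 glycolysis and hypoxia genes, with 0 higher and 7 lower at an unadjusted p under 0.05, while DESeq2 called 2 lower (Adm and Bnip3) and limma-voom 0. Ldha, which makes lactate, was at 818 TPM in stem cells and at 600 and 409 TPM in knockout bodies, against 2221 and 1885 TPM in the knockout day 4 bodies of the same lines. Of 20 cholesterol synthesis genes edgeR called 0, with 1 higher and 3 lower at an unadjusted p under 0.05; DESeq2 called Cyp51 and Msmo1 lower and limma-voom 0. Cyp51, a sterol demethylase, was at 36.5 TPM in stem cells and at 16.6 and 16.5 TPM in bodies.

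Epithelial keratins lay above stem cells: Krt8 was at 273 TPM in stem cells and at 483 and 976 TPM in bodies, and Krt18 at 284 TPM against 610.1 and 1059 TPM. Cdh1, the epithelial cadherin, was at 252.5 TPM against 262 and 201 TPM. edgeR called 0 of 19 epithelial genes, with 5 higher and 1 lower at an unadjusted p under 0.05, DESeq2 called Krt19, Rab25 and Tjp3 higher, and limma-voom called 0. Of 19 germline genes edgeR, DESeq2 and limma-voom called 0 (1 higher and 1 lower at an unadjusted p under 0.05); Dppa3, a factor of germ cells and naive cells, was at 4.03 TPM in stem cells and at 13.8 and 26.3 TPM in bodies. Of 31 Hox genes edgeR and limma-voom called 0 (1 higher and 2 lower at an unadjusted p under 0.05), DESeq2 called 2 lower, and wild-type day 8 bodies exceeded both knockout libraries in 29.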
